A study of Mus musculus and Homo sapiens with 352 samples.

Results

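CTCF deserts were the gaps of 300 kb or more between the ends of neighbouring CTCF peaks on a chromosome, in a peak list of mouse B cells. They were chosen by the measured positions of those peaks, and 1172 of 59957 gaps (1.95%) met the rule. The stretches before the first and after the last peak of each chromosome were left out. The interactions described with them are those of 2 CTCF ChIA-PET lists whose anchors lay on opposite sides of a desert, 357 of 11820 in the mutant list and 376 of 11534 in the wild-type list.

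The mutant library came from the mouse B cell lymphoma line CH12, of genotype CTCFmZF9to11, in which the labels place the CTCF mutation at zinc fingers 9 to 11. The wild-type library came from CH12 cells labelled WT. ChIA-PET ligates DNA ends that lie close together in chromatin pulled down with an antibody, and each sequenced pair supporting an interaction is a tag. The CTCF peaks came from WT CH12 cells and, in a list that set the deserts, from B cells whose name in the files joins the labels' short forms for resting and activated splenic B cells. The labels' CTCF libraries of splenic B cells are WT and include cells activated for 24 h. They also include cells activated for longer, some labelled HU treated and some untreated. Which libraries made the list is not stated. There was 1 ChIA-PET library per genotype, so every comparison is between 2 libraries and not between genotypes. The labels do not say whether the mutant cells are 1 clone. The mutant list held 82222 tags and the wild-type list 74198, in interactions of 3 tags or more. Positions are in mm9.

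CTCF recognises a DNA motif that has an orientation, through its array of zinc fingers. Cohesin, a ring-shaped complex, reels in chromatin to form growing loops and tends to stop where it meets CTCF bound in the right orientation, so that CTCF sites mark the ends of many loops. A stretch without CTCF peaks is therefore a stretch in which such a loop would have no CTCF site to end at. CTCF deserts are often also poor in genes, and genes were not looked up here.

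Most gaps between B cell peaks were far shorter than a desert, with a median of 11.9 kb. The deserts had a median length of 562 kb, and the middle of their distribution, between the quartiles, ran from 382 to 976 kb. There were 281 deserts of 1 Mb or more, and 106 were over 2 Mb. Together they covered 1041 Mb, which was 40.6% of the 2565 Mb between the first and the last peaks of the chromosomes. So the 1.95% of gaps that were deserts held a large share of the genome's length. The gaps closest to the limit were 300.099 kb on chromosome 1 (189513950 to 189814048) and 300.255 kb on chromosome 3 (78423094 to 78723348) just inside it. Just outside it were gaps of 299.679 kb on chromosome 2 (109745172 to 110044850) and 299.551 kb on chromosome 7 (144976246 to 145275796).

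Chromosome X was the most desert-rich chromosome. Its 81 deserts covered 65.3% of the span between its first and last peaks, against 48.7% on chromosome 3 and 47.5% on chromosome 14, the next highest. The lowest shares were 22.5% on chromosome 19 and 23.3% on chromosome 11. In number, chromosome X held 50.4 deserts per 100 Mb, above 15 and below 4 of the other chromosomes with deserts and against 45.7 over the genome. The chromosomes with deserts held between 24.1 and 56.2 of them per 100 Mb. The median desert on chromosome X was 552 kb long, against 563 kb on the others. The Y chromosome had 5 peaks and no desert.

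**Figure D1:**
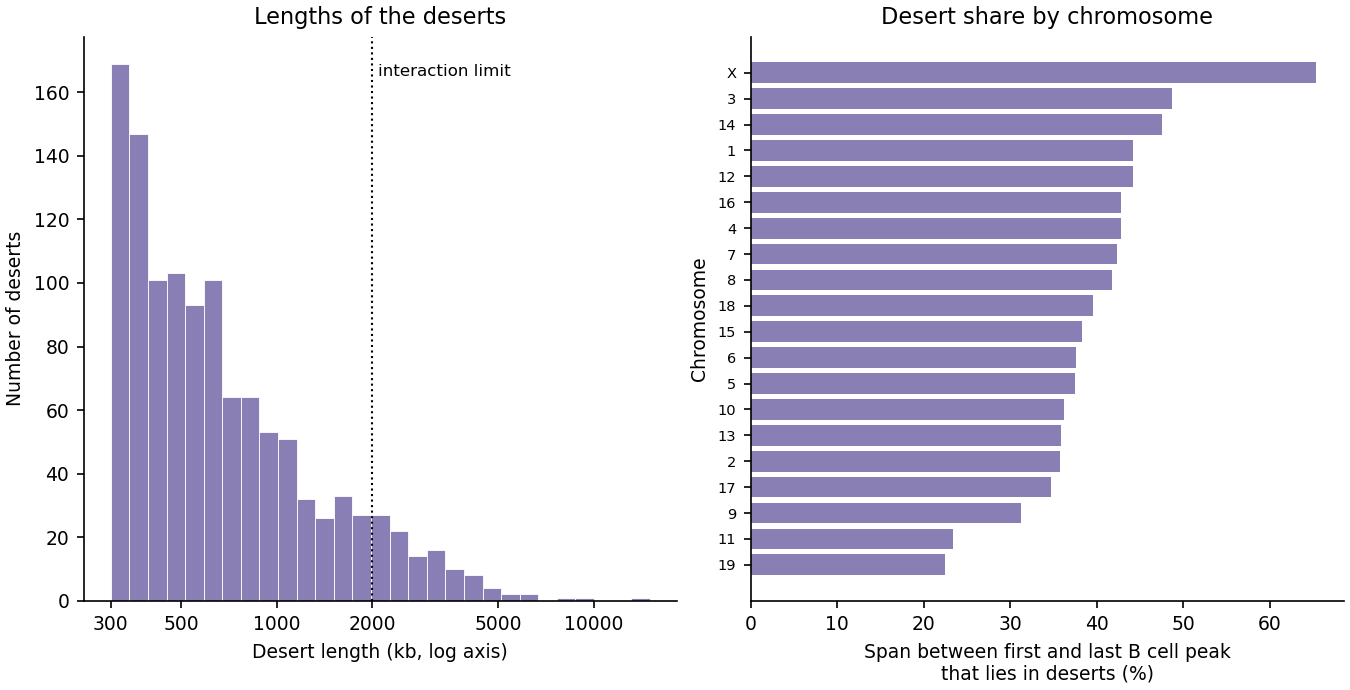
Left, number of deserts (vertical axis) by length in kb on a log axis, with a dotted line at the longest interaction the lists allow. Right, the percent of each chromosome's span between its first and last B cell peak that lay in deserts. Chromosome X stands at 65.3%, above chromosome 3 at 48.7%, and chromosomes 19 and 11 are lowest.

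Of the 5 longest deserts, 4 were on chromosome X. The longest ran over 14.2 Mb (X, 111672238 to 125838468) and held no CTCF peak of CH12 cells. The next was 9.83 Mb long (X, 23390748 to 33223342), with 4 CH12 peaks inside. The desert of 7.67 Mb on chromosome 7 (39067626 to 46739725) had none. The desert of 6.66 Mb on chromosome X (58906611 to 65566512) had 3, and that of 6.37 Mb (83217734 to 89588269) had 5. Whether unassembled or repeated sequence, in which reads cannot be placed, makes up part of such stretches was not tested.

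The peaks at the edges of deserts were of ordinary height. The 2104 edge peaks, 240 of which had a desert on both sides, had a median fold over background of 6.60 in the authors' list, against 6.44 for the other 57874 peaks. By the −log10 q-value they ranked slightly lower, at a median percentile of 43.8 against 50.3. A CTCF peak of CH12 cells overlapped 59.1% of the edge peaks (95% Wilson interval 57.0 to 61.2) and 58.5% of the others (58.1 to 58.9), so the share was close in both. Of the 240 peaks with deserts on both sides, 42.9% (36.8 to 49.2) had a CH12 peak. These isolated peaks were thus found in CH12 cells less often than the edge peaks as a whole, of which they are a part. They were also weaker, with a median fold of 5.90 and a median q-value percentile of 35.8. The part of peak strength in their lower share was not tested. All intervals cover counting error only and take peaks or interactions as independent, which they are not.

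CH12 cells had CTCF peaks in some of the B cell deserts. Of the 39438 CH12 peaks, 4142 overlapped no B cell peak, and 750 of these (18.1%, 17.0 to 19.3) lay in deserts. They fell in 430 of the 1172 deserts (36.7%, 34.0 to 39.5). Among the deserts, 742 held none, 249 held 1, 166 held 2 to 4 and 15 held 5 or more, up to 9. Another 1008 CH12 peaks reached into a desert from a B cell peak at its edge and were not counted, since the median CH12 peak was 581 bp wide and the median B cell peak 409 bp. Peaks found only in CH12 cells stood at 0.720 per Mb inside deserts and at 2.23 per Mb outside them, so the deserts were poor in CH12 peaks as well.

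The longer the desert, the sparser its CH12 peaks were. Deserts of 300 to 400 kb held 1.45 CH12 peaks per Mb, those of 500 to 750 kb 1.07, those of 1 to 2 Mb 0.597 and those over 2 Mb 0.316. The CH12 peaks in deserts were weak by the authors' score. Their median score percentile in the CH12 list was 19.2, near the 15.9 of other peaks found only in CH12 cells and below the 54.8 of CH12 peaks with a B cell peak. Only 58 of the 750 (7.73%) reached the median score of the list.

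**Figure D2:**
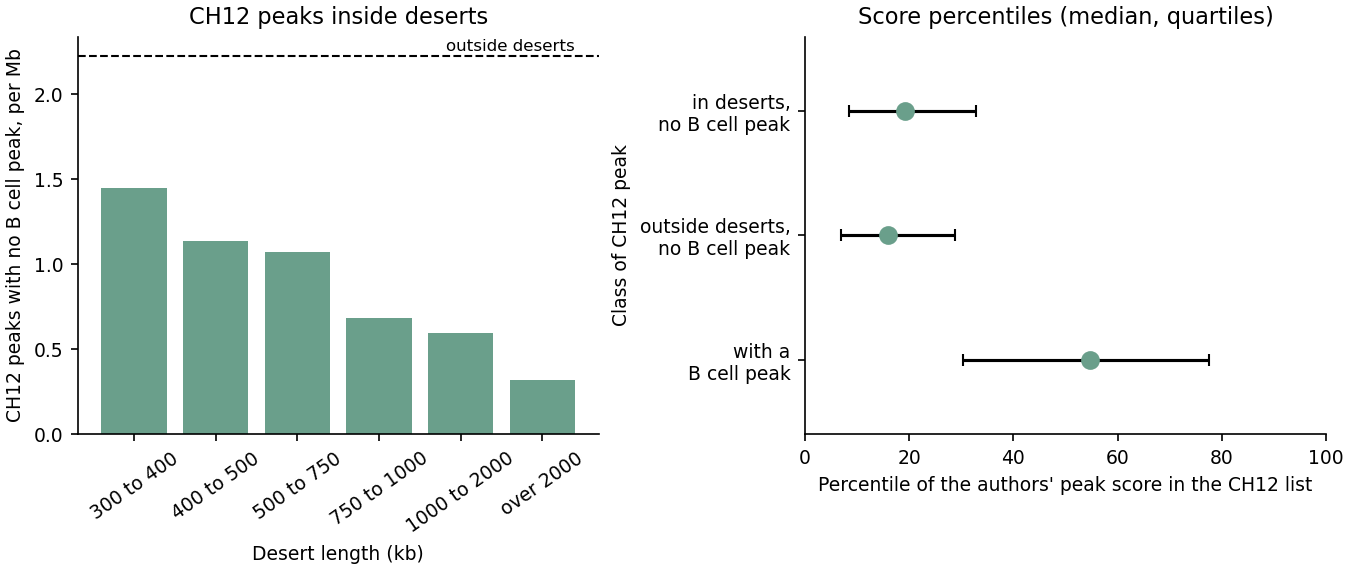
Left, CH12 peaks that overlap no B cell peak, per Mb of desert, by desert length in kb, with the density outside deserts as a dashed line (2.23 per Mb). Right, median (points) and quartiles (bars) of the score percentile in the CH12 list for 3 classes of CH12 peak. Density is lower in each longer class of desert, and peaks without a B cell peak have low scores inside and outside deserts.

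A few peaks in deserts were strong. The highest score, 1393, at the 90.5th percentile, was at positions 71387347 to 71388096 of chromosome 13, 143 kb from the nearer edge of a desert of 352 kb, and it was at an anchor of 1 interaction in each list. The second, with a score of 1391 at positions 39979808 to 39985829 of chromosome 17, lay 309 kb from the nearer edge and was at no anchor. The third, with a score of 1025 at positions 136436628 to 136437222 of chromosome 7, was at an anchor of no interaction in the mutant list and of 1 in the wild-type list. The desert with most CH12 peaks was that of 1672 kb on chromosome 14 (116606554 to 118278580), with 9. Deserts of 1052 kb on chromosome 12 (29516586 to 30568113) and of 1834 kb on chromosome 1 (75678903 to 77512713) had 8 each. No interaction of either list crossed any of these 3 deserts.

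Interactions across deserts were uncommon in both lists and much longer than the rest. They made up 3.02% of the mutant list (2.73 to 3.34) and 3.26% of the wild-type list (2.95 to 3.60). Their median span was 868 kb in the mutant list and 770 kb in the wild-type list, where interactions away from deserts had medians of 146 kb and 125 kb. A crossing interaction must be at least as long as a desert, so it was set beside the other interactions of 300 kb or more. The median tag number was 4 for crossing and for other long interactions in both lists. At least 10 tags were found for 32 mutant (8.96%) and 27 wild-type (7.18%) crossing interactions, beside 10.4% and 10.1% of the other long interactions. Crossing interactions were longer, and within span classes their median tags were the same or higher. In the mutant list the medians were 4.5 for crossing and 4 for other interactions of 300 to 500 kb, 5 and 4 at 500 to 800 kb, and 4 and 4 from 800 kb. In the wild-type list they were 5 and 4, 4 and 4, and 4 and 3. At 500 to 800 kb, 15.8% (9.99 to 24.2) of the crossing and 8.12% (6.30 to 10.4) of the other mutant interactions had 10 or more tags, with intervals that overlapped slightly. In the wild-type list the order there was the reverse, at 5.38% and 7.55%. At 300 to 500 kb the shares were 17.3% and 12.0% in the mutant list and 18.8% and 11.6% in the wild-type list. From 800 kb they were 3.43% and 5.61%, and 3.95% and 2.63%. The share was thus not higher for crossing interactions in each class.

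Few CTCF peaks lay between the anchors of a crossing interaction. The median number of B cell peaks passed over was 7 in the mutant list and 4 in the wild-type list, against 16 and 12 for other long interactions, which were shorter. Per 100 kb the medians were 0.830 and 0.598 for crossing, against 3.32 and 2.71 for other long interactions, a difference that the choice by gaps in this peak list sets in part. CH12 peaks stood at 0.630 and 0.476 per 100 kb between crossing anchors and at 2.00 and 1.66 per 100 kb between other long anchors. Of the 39438 CH12 peaks, 35296 overlapped a B cell peak, so the choice by gaps sets this difference in part too. The anchors differed in strength, though not at each span. The lower of the anchors' CH12 score percentiles had a median of 55.9 for mutant and 47.9 for wild-type crossing interactions, against 63.5 and 61.0 for the other long ones. From 800 kb it was 57.0 for crossing and 57.1 for other mutant interactions, and 45.6 and 54.7 for wild-type ones.

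The mutant list was richer in long interactions but not in interactions across deserts. It had 2829 interactions of 300 kb or more, where the wild-type list had 2186, a ratio of 1.29 (95% exact interval 1.22 to 1.37). Leaving out crossing interactions, the counts were 2472 and 1810, a ratio of 1.37 (1.28 to 1.45). For crossing interactions they were 357 and 376, a ratio of 0.949 (0.819 to 1.1). For all interactions the ratio was 1.02. Crossing interactions were therefore 12.6% of the long mutant interactions (11.4 to 13.9) and 17.2% of the long wild-type interactions (15.7 to 18.8).

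This result depends on how an anchor at an edge is treated. Anchors were wider than peaks, with medians of 1107 bp in the mutant list and 1097.5 bp in the wild-type list, so an anchor on an edge peak usually runs on into the desert, and it was counted as outside. When only interactions with whole anchors outside were counted, 227 mutant and 202 wild-type interactions crossed. The ratio was then 1.12 (0.926 to 1.37), on the other side of 1. The other long interactions, which then included the crossings dropped by this rule, had 1.31 (1.24 to 1.39), so the intervals overlapped. The shares of long interactions were then 8.02% (7.08 to 9.08) and 9.24% (8.10 to 10.5). With deserts from 500 kb the intervals overlapped too, at 1.05 (0.813 to 1.35) for crossing and 1.31 (1.24 to 1.39) for other long interactions. The latter then included interactions that crossed only shorter deserts.

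The lower share in the mutant list was found at each span. Of interactions of 300 to 500 kb, 3.17% (2.43 to 4.14) crossed a desert in the mutant list and 5.20% (4.13 to 6.52) in the wild-type list. Of those of 500 to 800 kb, 12.8% (10.6 to 15.3) and 22.9% (19.7 to 26.6) crossed. Of those of 800 kb or more, 51.0% (46.1 to 55.9) and 60.8% (55.1 to 66.3) crossed. The intervals of the lists did not overlap at 500 to 800 kb and overlapped slightly in the other span classes. From 800 kb, then, most interactions of the wild-type list ran over a desert, and in the mutant list about as many did as did not.

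**Figure D3:**
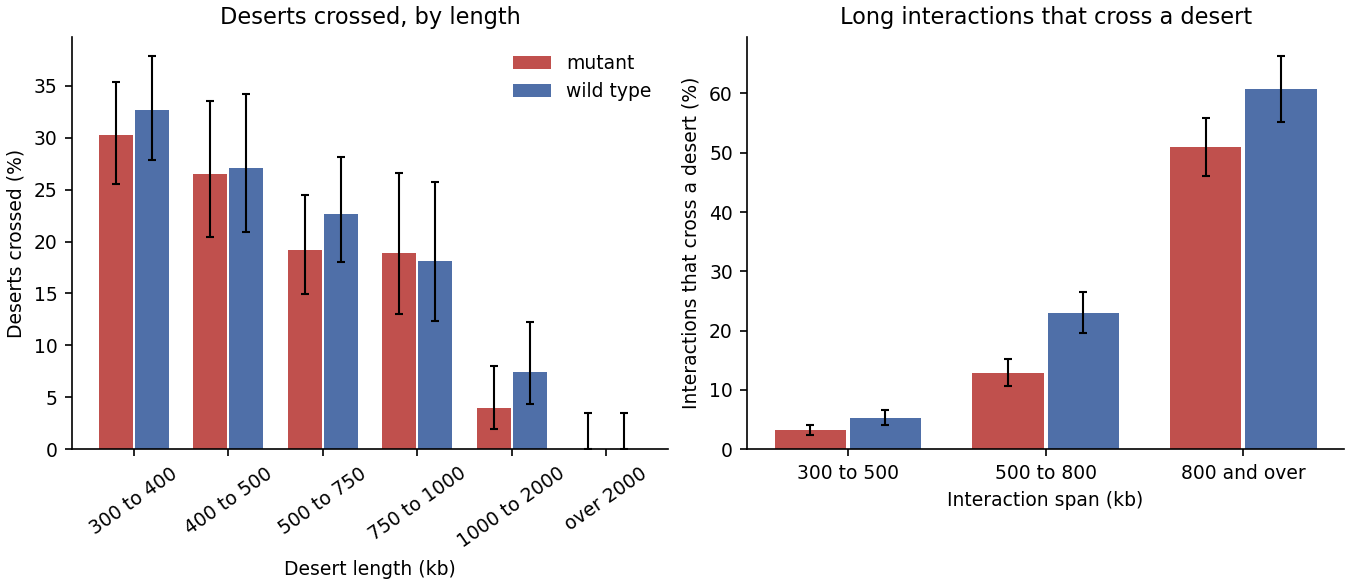
Left, percent of deserts crossed by at least 1 interaction, by desert length in kb. Right, percent of interactions that cross a desert, by interaction span in kb. Bars are the mutant list (red) beside the wild-type list (blue) and lines are 95% Wilson intervals. No desert over 2 Mb was crossed, the lists differ little in deserts crossed, and the mutant share of long interactions that cross is lower in all 3 span classes.

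The gradient was visible in shorter gaps too. Interactions of 300 kb or more were grouped by the longest gap between B cell peaks that lay between their anchors. Where this gap was under 50 kb, the mutant list held 140 and the wild-type list 80, a ratio of 1.75 (1.32 to 2.33). From 50 to 100 kb the ratio was 1.59 (1.43 to 1.77), from 100 to 200 kb it was 1.31 (1.2 to 1.44), and from 200 to 300 kb it was 1.06 (0.911 to 1.23), against 0.949 for gaps of 300 kb or more. The ratio was thus highest where no long gap was spanned and lowest over deserts, with overlapping intervals between neighbouring classes. Span moved with the gap: in the mutant list the median span was 354 kb in the first class and 593 kb from 200 to 300 kb, and the part of span in the gradient was not tested beyond the span classes above.

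Of the 1172 deserts, interactions of the mutant list crossed 227 (19.4%, 17.2 to 21.7) and those of the wild-type list 250 (21.3%, 19.1 to 23.8). The intervals overlapped. With whole anchors outside the desert the shares were 14% (12.1 to 16.1) and 12.4% (10.6 to 14.4), so the order turned. In all, 160 deserts were crossed in both lists, 67 only in the mutant list, 90 only in the wild-type list and 855 in neither list. Shorter deserts were crossed more often. Among those of 300 to 400 kb, 30.2% were crossed in the mutant list and 32.6% in the wild-type list. For deserts of 500 to 750 kb the shares were 19.2% and 22.7%, and for those of 1 to 2 Mb 4.00% and 7.43%. None of the 106 deserts over 2 Mb was crossed, as the lists hold no interaction over 2 Mb.

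Crossed deserts differed from the others in what lay inside and at their edges. The 317 crossed in either list had a median length of 442 kb and held 1.26 CH12 peaks per Mb, and the 855 crossed in neither had a median of 634 kb and 0.618 per Mb, so length moved with density, and its part was not tested. A CH12 peak overlapped 71.3% of the edge peaks of crossed deserts and 54.3% of those of the others. Edge peaks at an anchor mostly had a CH12 peak, 213 of 219 in the mutant list and 299 of 307 in the wild-type list. Being crossed by an interaction that ends on an edge therefore sets this difference in part. The deserts crossed in neither list also include the 106 over 2 Mb, which no listed interaction could cross. On chromosome X, 4 of the 81 deserts were crossed in the mutant list and 2 in the wild-type list. On chromosome 13 the counts were 18 and 24 of 60 deserts, and on chromosome 7 they were 12 and 5 of 71.

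The lists differed more in where crossing interactions ended than in how many there were. An interaction may end on the edge peak itself or farther out. In the mutant list 149 of 357 crossing interactions (41.7%, 36.7 to 46.9) had an anchor on an edge of a desert they crossed, and in the wild-type list 210 of 376 (55.9%, 50.8 to 60.8). The ratio of these counts was 0.710 (0.571 to 0.879). For crossing interactions with no anchor on an edge the counts were 208 and 166, a ratio of 1.25 (1.02 to 1.55). So the mutant list had fewer crossing interactions that touched an edge and more that ended beyond both edges. Other interactions of 300 kb or more had a ratio of 1.37 (1.28 to 1.45). Its interval overlapped that of crossing interactions with no anchor on an edge, so these were not in excess of the mutant list's other long interactions. It did not overlap that of crossing interactions with an anchor on an edge.

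Counted per interaction and desert, since some interactions crossed more than 1 desert, there were 396 crossings in the mutant list and 430 in the wild-type list. Both edges of the desert were anchors in 10 mutant and 29 wild-type crossings, a ratio of 0.345 (0.150 to 0.728). One edge was an anchor in 141 and 189 (0.746, 0.596 to 0.933), and neither was in 245 and 212 (1.16, 0.958 to 1.40). Over all anchors, with those that reached the edge counted as 0 kb, the median distance from the edge was 139 kb in the mutant list and 90.2 kb in the wild-type list. Of these anchors 20.3% and 28.7% were on an edge, so the difference in distance restates these shares in part. Exactly 2 deserts were crossed by 31 mutant and 52 wild-type interactions, and 3 deserts by 4 and 1.

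Over all strengths, edge peaks were used as anchors less often than other B cell peaks, a difference found in the stronger peaks. An anchor of the mutant list overlapped 219 of the 2104 edge peaks (10.4%, 9.18 to 11.8) and one of the wild-type list 307 (14.6%, 13.1 to 16.2). Of the other B cell peaks, 21.8% and 23.5% were at an anchor. Among B cell peaks of the highest 20 percentiles by q-value, 31.3% (26.0 to 37.1) of the edge peaks and 56.8% (55.9 to 57.6) of the others were anchors in the mutant list, and 40.8% (35.1 to 46.9) and 60.7% (59.8 to 61.6) in the wild-type list. From the 60th to the 80th percentile the shares were 16.2% and 33.8% in the mutant list and 23.5% and 36.9% in the wild-type list, and from the 40th to the 60th 8.90% and 10.4%, and 11.0% and 11.7%. From the 20th to the 40th they were 4.20% (2.76 to 6.34) and 4.05% (3.70 to 4.43) in the mutant list, and 7.20% (5.25 to 9.81) and 4.24% (3.89 to 4.62) in the wild-type list, where edge peaks were the higher. In the lowest 20 percentiles they were 1.94% and 3.13% in the mutant list and 3.89% and 3.09% in the wild-type list. Of the 240 peaks with a desert on both sides, 9 were anchors in each list.

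Interactions at edge peaks could point into the desert or away from it, and the inward shares of the lists had overlapping intervals. Among edge peaks with a desert on 1 side, the interactions of the mutant list pointed into the desert 167 times and away 142 times (54.0% inward, 48.5 to 59.5). Those of the wild-type list did so 258 and 171 times (60.1%, 55.4 to 64.7). Interactions that bordered a desert, with an anchor on its edge and pointing away, and that crossed none, numbered 129 in the mutant list and 157 in the wild-type list, a ratio of 0.822 (0.646 to 1.04). Their median spans were 210 and 183 kb, and their median tag number was 4 in each list.

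Wild-type anchors at desert edges were in the mutant list less often than wild-type anchors elsewhere. Of the 307 edge peaks that were wild-type anchors, 149 (48.5%, 43.0 to 54.1) were also mutant anchors, against 68.5% (67.8 to 69.3) of the other 13595 wild-type anchors at B cell peaks. In the other direction, 149 of 219 mutant edge anchors (68.0%, 61.6 to 73.9) were also wild-type anchors, against 73.9% (73.2 to 74.7) elsewhere. By the longer of the gaps adjoining the peak, the share of wild-type anchors also in the mutant list was 70.1% (68.6 to 71.5) under 10 kb, 68.8% (67.5 to 70.1) from 10 to 30 kb and 68.6% (67.1 to 70.0) from 30 to 100 kb. It was 61.8% (58.8 to 64.7) from 100 to 300 kb. The shares up to 100 kb had overlapping intervals, and those beyond were lower.

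**Figure D4:**
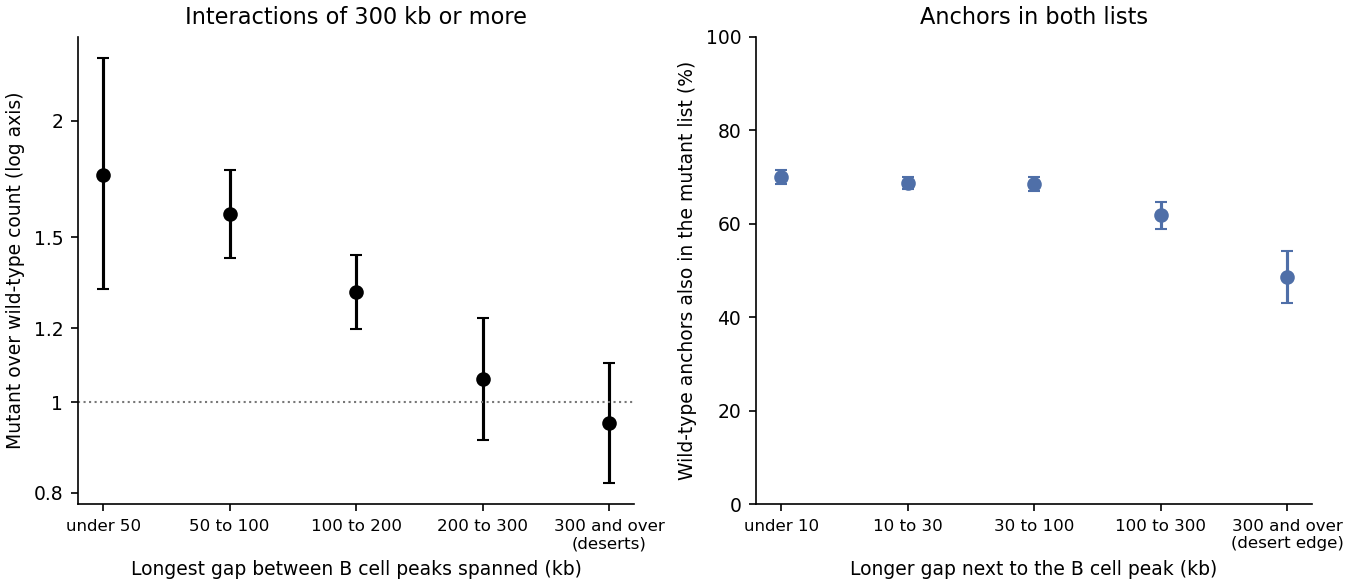
Left, mutant over wild-type count of interactions of 300 kb or more (log axis) by the longest gap between B cell peaks spanned, with 95% exact intervals and a dotted line at 1. Right, percent of wild-type anchors at B cell peaks that are also anchors in the mutant list, by the longer gap beside the peak, with 95% Wilson intervals. The ratio runs from 1.75 over short gaps to 0.949 over deserts, and the anchor share from 70.1% to 48.5% at desert edges.

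Weaker binding and fewer tags went with the edges. The CH12 peaks at wild-type edge anchors had a median score percentile of 60.5, against 74.7 at other wild-type anchors. In each class of 20 percentiles the share also in the mutant list was lower at edges: 40.7% and 42.1% in the lowest class, 35.7% and 50.8% in the next, 43.0% and 57.7% in the middle one, 55.8% and 68.3% above it, and 58.9% and 81.2% in the highest. The intervals did not overlap in the upper 3 classes. Wild-type edge anchors had a median of 5 tags in all, against 7 at other anchors. With 3 tags, 19.8% (12.9 to 29.1) of edge anchors and 43.1% (41.3 to 44.9) of others were in both lists. With 4 to 9 tags the shares were 52.3% (44.4 to 60.1) and 62.6% (61.3 to 63.8). With 10 to 19 tags, 36 of 45 edge anchors (80%, 66.2 to 89.1) and 84.8% (83.5 to 86.0) of others were in both. With 20 or more tags, 16 of 20 edge anchors (80%, 58.4 to 91.9) and 94.8% (93.7 to 95.7) of others were. The share was lower at edges in each tag class, with overlapping intervals at 10 to 19 tags.

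Crossing interactions of the wild-type list were missing from the mutant list more often than other long ones. Of the wild-type crossing interactions, 246 of 376 (65.4%, 60.5 to 70.1) were missing from the mutant list, where 53.2% of all wild-type interactions were missing. Found in the mutant list were 34.6% (29.9 to 39.5) of the crossing and 47.5% (45.2 to 49.8) of the other long wild-type interactions. In the other direction, 227 of 357 mutant crossing interactions (63.6%, 58.5 to 68.4) were missing from the wild-type list, beside 54.3% of all mutant interactions. There 36.4% (31.6 to 41.5) of the crossing and 34.7% (32.9 to 36.6) of the other long mutant interactions were found. The matched interactions were equally many from either list, 130 crossing and 859 other long ones, and were also equally many in each span class. The difference between the 2 directions therefore restates the list counts given above and is no separate result. Within span classes the mutant crossing interactions were found more often than the others. The shares were 51.9% (38.7 to 64.9) and 37.6% (35.2 to 40.0) at 300 to 500 kb, 47.5% (38.1 to 57.2) and 31.9% (28.5 to 35.5) at 500 to 800 kb, and 27.0% (21.3 to 33.4) and 21.9% (16.7 to 28.2) from 800 kb, with intervals apart only at 500 to 800 kb. The wild-type crossing interactions were found less often than the others in each class, at 39.1% and 47.3%, 36.9% (29.1 to 45.5) and 50.3% (45.7 to 55.0), and 31.1% and 37.7%, again with intervals apart only at 500 to 800 kb. Among interactions with 3 tags, 18.2% (12.9 to 25) of the crossing and 31.0% (27.7 to 34.5) of the other long wild-type ones were found in the mutant list. With 4 to 9 tags it was 42.1% (35.3 to 49.1) and 52.6% (49.3 to 55.8). With 10 to 19 tags it was 14 of 20 (70%, 48.1 to 85.5) and 83.7% (76.9 to 88.8), with overlapping intervals. With 20 or more tags it was 6 of 7 and 94.3%, also with overlapping intervals. For mutant interactions found in the wild-type list the shares were 16.9% and 17.9% with 3 tags and 41.5% and 37.4% with 4 to 9. They were 81.8% and 78.3% with 10 to 19 tags and 90% and 96% from 20, with overlapping intervals throughout.

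An interaction can be missing because an anchor has no interaction at all in the other list, or because the same anchors have other partners there. Among the missing mutant crossing interactions, 71 of 227 (31.3%, 25.6 to 37.6) had both anchors in use in the wild-type list. Among the missing wild-type crossing interactions, 36 of 246 (14.6%, 10.8 to 19.6) had both anchors in use in the mutant list. For other long interactions the shares were 52.0% for mutant and 30.7% for wild-type ones. Most missing crossing interactions of either list therefore lacked an anchor in the other list. No source used here names the cells behind the peak calls that set the anchors, and a missing peak call and a lost interaction cannot be told apart.

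For the 130 crossing interactions in both lists, tags were compared directly. After scaling by all listed tags, 12 (9.23%) were 2-fold or more higher in the mutant list, beside 12.6% of all 5400 shared interactions. In the mutant list 11 (8.46%) were 2-fold or more lower, beside 10.9% of all. These shares are near those of all shared interactions. The median ratio was 1.03 for crossing and 1.00 for all shared interactions. In sum the 130 had 1003 tags in the mutant list and 936 in the wild-type list, a ratio of 0.967 after scaling, against 1.04 for all shared interactions.

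Few interactions had an anchor inside a desert. There were 50 in the mutant list and 58 in the wild-type list, a ratio of 0.862 (0.579 to 1.28), and 35 (70.0%, 56.2 to 80.9) and 43 (74.1%, 61.6 to 83.7) of them were missing from the other list, beside 54.3% and 53.2% of all interactions. Their anchors, 39 in the mutant list and 59 in the wild-type list, mostly carried a CH12 peak (34 and 54). Such anchors were at 35 of the 750 CH12 peaks in deserts in the mutant list and at 55 in the wild-type list, a ratio of 0.636 (0.404 to 0.990). For peaks found only in CH12 cells outside deserts the counts were 193 and 188 (1.03, 0.835 to 1.26). Of the 55 wild-type anchors at CH12 peaks in deserts, 14 (25.5%, 15.8 to 38.3) were also mutant anchors, against 40.4% (33.7 to 47.6) outside deserts, with overlapping intervals. Interactions with both anchors in the same desert numbered 1 in the mutant list and 6 in the wild-type list.

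The desert with most tags across it was on chromosome 9 (30289021 to 30728397), 439 kb long, with no CH12 peak inside. Crossing it were 5 interactions in each list, with 146 tags in the mutant list and 152 in the wild-type list. Of these, 4 mutant and 3 wild-type interactions started from 1 anchor at its left edge (30287658 to 30288808), where the CH12 peak ranked at the 99.4th percentile. To an anchor 15.5 kb beyond the right edge the mutant list had 66 tags and the wild-type list 90, which was the highest number of any crossing interaction. The ratio after scaling by all listed tags was 0.662. To an anchor 19.2 kb beyond, there were 23 and 42 (scaled ratio 0.494). To an anchor 161 kb beyond, there were 36 and 8 (scaled ratio 4.06), and to one 165 kb beyond, 18 in the mutant list and none listed in the wild-type list. From the same edge, the mutant list therefore held more tags to the far anchors and fewer to the near ones.

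Of the deserts off chromosome 18, most interactions, counting both lists, crossed that of 302 kb on chromosome 13 (111455933 to 111758290), with 6 in the mutant list (45 tags) and 8 in the wild-type list (58 tags). From neighbouring anchors left of the desert, the mutant list had 10, 8 and 5 tags to the right edge, and the wild-type list 20, 8, 7 and 3. To an anchor 745 kb from the left edge, the mutant list had an interaction of 14 tags that spanned 1028 kb (111172326 to 112201809) and was not in the wild-type list. That anchor had 6 tags from a neighbouring left anchor in the wild-type list. An anchor 572 kb from the left edge had interactions of 5 and 6 tags in the wild-type list and none in the mutant list.

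The desert of 520 kb on chromosome 1 (57486240 to 58006097) was crossed by 6 mutant interactions (23 tags) and 4 wild-type interactions (19 tags). The largest wild-type interaction, with 8 tags, joined its edges directly and was not in the mutant list. In the mutant list the interactions ended between 602 and 867 kb from the left edge, and in the wild-type list between 520 and 716 kb. In the desert of 309 kb on chromosome 7 (150340210 to 150649597), 4 mutant interactions had 32 tags and 5 wild-type interactions 50. An anchor on the right edge received 20 and 4 tags in the wild-type list and was in no crossing interaction of the mutant list. The next anchor to the right received 16 and 7 tags in the mutant list and 17 and 6 in the wild-type list. The interaction of 20 tags between the edges of this desert had the most tags of the crossing interactions off chromosome 18 that were only in the wild-type list.

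The desert of 430 kb on chromosome 11 (99435864 to 99865882) was crossed by 5 mutant interactions (26 tags) and 6 wild-type interactions (28 tags). The interaction that ended on its right edge had 3 tags in the mutant list and 7 in the wild-type list, and one that ended 595 kb from the left edge had 10 and 7. These counts are too low to tell such differences from counting error. These 5 deserts were named for their number of interactions, so their counts are a description.

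**Figure D5:**
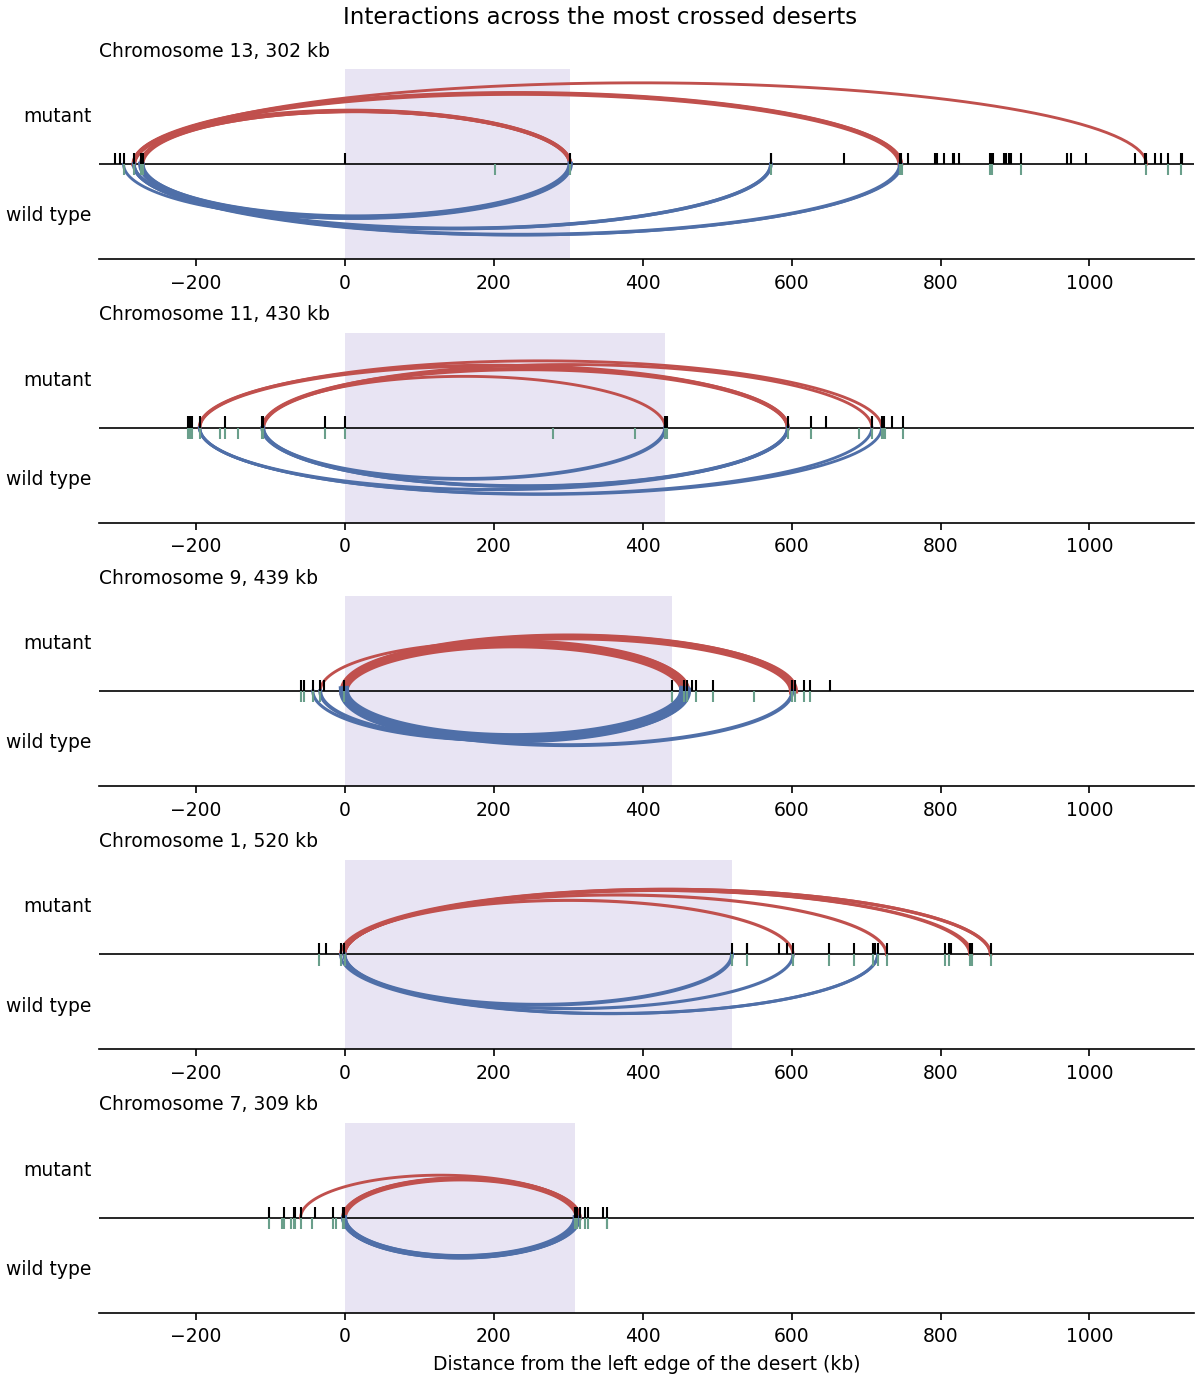
Interactions across the 5 most crossed deserts, by distance in kb from the desert's left edge. Shading is the desert, arcs above the line are the mutant list and arcs below are the wild-type list, with width growing with the square root of the tags, and ticks mark B cell peaks (black, above) and CH12 peaks (green, below). On chromosome 1 mutant arcs reach farther beyond the right edge. On chromosome 9 the arcs of the lists reach about as far, with more mutant tags to the far anchors. On chromosome 11 the arcs of both lists end at the same places right of the desert.

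Among other crossing interactions named for their tags, those in both lists crossed deserts on chromosomes 10 and 8. On chromosome 10 the interaction from 86487364 to 86967475 had 21 mutant and 26 wild-type tags over a desert of 377 kb. On chromosome 8 that from 69954748 to 70339225 had 24 and 22 tags over 374 kb. Of those in the mutant list only, the largest had 26 tags and ran from 99541126 to 100294668 on chromosome 14, over a desert of 655 kb to its right edge. Of those in the wild-type list only, after the one on chromosome 7 came 13 tags on chromosome 9 (41282387 to 41760009) and 11 tags on chromosome 5 (41516048 to 42160365). Both started at the left edge of their desert and ended beyond the right one.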

How the data were processed

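CTCF ChIA-PET interactions of 1 library per genotype and 2 CTCF peak lists were used, of a series of 352 samples. The interaction lists hold counts of tags deposited by the authors. Per the file headers, anchors are CTCF peak calls that hold a core motif, and interactions have at least 3 tags and span at most 2 Mb. The CH12 list holds a score per peak deposited by the authors, and the B cell list a −log10 q-value and a fold (ratio) over background, also deposited by the authors. Scores were used as ranks within a list. The submitters' processing notes name BWA, Bowtie 1.1.1, bedtools 2.25, SAMtools 1.2, CASAVA 1.8.2 and the build mm9. Not given in the sources used here are the interaction and peak callers, any pooling before peaks were called, and the cells whose peaks set the anchors. Library depth is unknown, since interactions under 3 tags are not listed.

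Gaps, crossings and overlaps (at least 1 bp) were computed with pandas 2.3.3, numpy 2.4.6, matplotlib 3.10.9 and scipy 1.17.1 in Python 3.11.15, and the steps were tested on simulated peaks and interactions. Span is the distance between anchor midpoints. An interaction crossed a desert when its anchors lay on opposite sides, and an anchor that overlapped the flanking peak counted as outside, a definition set after the widths of anchors and peaks were seen. Interactions matched when both anchors overlapped. With 1 library per genotype no test was made: shares have 95% Wilson intervals and ratios exact binomial 95% intervals, for counting error only. Deserts were chosen with earlier results of these data known, as were the comparisons. Named were the 5 longest deserts, the 2 gaps on each side of the limit, the 5 deserts with most crossing interactions, the 3 with most CH12 peaks, the 3 strongest CH12 peaks inside, and the crossing interactions with most tags (5 in both lists, 3 in either only). Regions of chromosome 18 were counted and not named. No gene name or sequence was taken, since the gene tables used a build other than mm9. Alternatives were other gap lengths, peak lists, tag limits, crossing and matching rules, scalings and leaving out chromosome X.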

Additional observations from a re-analysis of the deposited data

How the results depend on the processing

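Of 57 alternative values, 28 stayed within the 95% interval (or 1.5 times the count) of the value reported and 29 did not. Among the 28, the values with anchors allowed up to 10 kb inside the desert were identical to those reported. So was the value scaled to the tags of shared interactions. These settings changed no value, so they say nothing about how stable the results are. No paired analysis was possible because each genotype had 1 ChIA-PET library. Values follow with the mutant list before the wild-type list, and the cause was not tested where the construction does not show it. Deserts from 500 kb numbered 668, of which 40.7% held a CH12 peak and 12.1% and 14.2% were crossed, and from 250 kb 33.3%, 22% and 24.0%. Only 4.27% of deserts held a CH12 peak of at least the median score. With gaps of both peak lists joined, 17.1% of deserts were crossed in the mutant list, and 11.0% and 14.5% of long interactions crossed. With 4 or more tags, 13.8% of deserts were crossed in each list, the ratio of crossing interactions was 1.02 (0.846 to 1.24) and that of other long ones 1.41 (1.30 to 1.52). With whole anchors outside, an alternative chosen after seeing the data, 14% and 12.4% of deserts were crossed, 8.02% and 9.24% of long interactions crossed and the ratio was 1.12. Gaps between CH12 peaks gave a ratio of 0.984 and leaving out chromosome X 0.944. Matching within 10 kb found 42.0% and 40.7% of crossing interactions in the other list. Of shared crossing interactions with 10 or more tags in the lists together, 25.3% (17.2 to 35.6) differed 2-fold, beside 30.7% of all shared interactions with as many tags, where without this limit it was 17.7%. Edges at an anchor were 13.1% and 17.3% with anchors up to 10 kb outside, and 23.8% and 29.1% among stronger B cell peaks. There 59.4% (55.8 to 63.0) of wild-type edge anchors were in the mutant list, against 71.2% of others, a comparison also chosen after seeing the data. It was 50.7% against 67.3% with 4 or more tags and 48.8% against 68.8% without chromosome X. Median tags of mutant crossing interactions were 4.5 at 300 to 500 kb and 5 at 500 to 800 kb, and of wild-type ones 5 at 300 to 500 kb.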

Other observations

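Crossing interactions of the mutant list that ended on an edge were found in the other list more often than those that did not. In the wild-type list the order was the reverse, with overlapping intervals. Of the crossing interactions with an anchor on an edge, 69 of 149 in the mutant list (46.3%, 38.5 to 54.3) were also in the wild-type list, and 69 of 210 in the wild-type list (32.9%, 26.9 to 39.5) were also in the mutant list. Of those with no anchor on an edge, the shares were 61 of 208 (29.3%, 23.6 to 35.8) and 61 of 166 (36.7%, 29.8 to 44.3). The shared interactions, 69 on an edge and 61 not, were equally many from either list. The reversal between the lists therefore follows from the counts of 149 and 210 and of 208 and 166 given above. The median span of crossing interactions that ended on an edge was 650 kb in the mutant list and 658 kb in the wild-type list, and of those that did not 1018 kb and 895 kb.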
